A study of Mus musculus with 2 samples.

Results

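The genes described here are 32 cholesterol genes, chosen by name from the 18049 genes that the expression data list, and not by level. Earlier results of these data were known when they were chosen. They comprise 18 enzymes of cholesterol synthesis, 6 genes of sterol sensing, control and transport within the cell, and 8 genes of uptake, efflux, storage and the nuclear receptors that govern them. All 32 were listed in both libraries. The cells were MHCII-high CD11c+ B220- dendritic cells (DCs) sorted from the skin-draining lymph nodes (dLNs) of B6 mice, profiled by CITEseq, which reads mRNA and DNA-barcoded surface antibodies in the same cell. One library came from naive, unimmunized mice and 1 from mice immunized with ovalbumin (OVA) plus papain, a protease allergen, 1 day earlier. The study asked how CD301b+ DCs promote type 2 helper T cell responses. According to the methods, popliteal nodes were taken from the immunized mice and pooled skin-dLNs from the naive mice, whereas the sample labels name popliteal nodes in the protocol of both libraries and skin-draining nodes as the tissue. Lymph node site and immunization therefore cannot be told apart in any comparison between the libraries.

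Cells make cholesterol from acetyl-CoA, first through the mevalonate pathway to farnesyl diphosphate, then through squalene and lanosterol. When sterol is low in the endoplasmic reticulum, SCAP carries SREBP2, the product of *Srebf2*, to the Golgi, where it is cut and released to switch on the genes of synthesis, while INSIG proteins hold the complex back when sterol is plentiful. Oxysterols act through the LXR nuclear receptors, encoded by *Nr1h3* and *Nr1h2*, which switch on the efflux transporters *Abca1* and *Abcg1*.

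One sequence is shown because it was the only promoter, among the 15 synthesis enzymes searched, that held the searched letters of a sterol regulatory element. The letters TCACNCCAC were searched on both strands in the 250 bases before the annotated start of each gene (RefSeq, GRCm38.p6), where 26 of the 32 members had an entry. The window of *Hmgcs1*, the enzyme that condenses acetoacetyl-CoA and acetyl-CoA, spans chr13:119690101-119690350 on the plus strand and is given 5′ to 3′ with the matching letters in capitals.

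Hmgcs1: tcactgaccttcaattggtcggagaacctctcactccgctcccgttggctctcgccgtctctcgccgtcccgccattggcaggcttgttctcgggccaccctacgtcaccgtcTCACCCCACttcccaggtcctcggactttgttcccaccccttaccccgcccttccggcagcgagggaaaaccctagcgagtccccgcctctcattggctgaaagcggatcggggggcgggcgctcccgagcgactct

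The capitals begin 137 bases before the start. Of 32851 such windows in the table, 346 (1.05%) held these letters. The letters CCAAT, the core of the element bound by NF-Y, occurred on either strand in 14 of the 18 windows of the synthesis enzymes, 5 of the 10 of the sensing and control genes and 2 of the 9 of the uptake and efflux genes, against 33.8% of all windows. Some genes have several windows. A match is a description of letters and not evidence of binding.

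The authors' own classes from the surface antibodies were used throughout: Langerhans cells (LCs), type 1 conventional DCs (cDC1s) and type 2 conventional DCs (cDC2s) with low, intermediate or high surface CD301b. In the same order, the naive library had 440, 578, 658, 659 and 707 cells and the papain library 881, 235, 1470, 1827 and 2893. The median depth of these classes was 10768 to 15807 unique molecular identifiers (UMIs) per cell in the naive library and 11351 to 18290 in that of papain. Levels are UMIs of a gene per 1000000 UMIs of all cells of a class (CPM). With 1 library per condition there was no replicate and no test, and all 95% intervals, exact Poisson for levels and exact conditional binomial for ratios, cover counting error only. The summed LC, cDC1 and cDC2 marker mRNAs were each highest in their own class or classes in both libraries. However, *Tlr3*, a cDC1 marker, had 0 UMIs in papain cDC1s. Most of the cDC1 sum was *Irf8*, 566 of 589 CPM in naive and 830 of 850 CPM in papain cDC1s. *Irf8* was also at 530 CPM in papain LCs. The cDC2 markers *Mgl2* and *Cd209a* were at no more than 1.21 and 1.38 CPM in the papain cDC2 classes. The libraries shared 2 barcodes. The UMIs of 4 T cell genes summed to 146 CPM in naive cDC1s against 20.5 CPM in papain cDC1s, and those of 6 macrophage genes to 96.0 CPM in naive against 27.3 CPM in papain CD301b-low cDC2s. In CD301b-intermediate and CD301b-high cDC2s the macrophage genes summed to 88.6 and 37.3 CPM in the naive and 14.2 and 16.8 CPM in the papain library. A pair of monocyte genes summed to 37.4, 44.3 and 36.1 CPM in the 3 naive and 9.58, 1.84 and 0.910 CPM in the 3 papain cDC2 classes.

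The first question was how synthesis compared between the libraries. Summed over the 18 enzymes, synthesis mRNA was higher in the papain library in LCs, cDC1s and CD301b-low cDC2s, slightly higher in CD301b-intermediate cDC2s, and nearly equal in CD301b-high cDC2s. In LCs the sum was 515 CPM (496 to 535) among naive cells and 815 CPM (802 to 829) among papain cells, a log2 ratio of 0.66 (0.60 to 0.72). In cDC1s it was 477 CPM (463 to 491) and 799 CPM (768 to 831), a log2 ratio of 0.75 (0.67 to 0.82). In CD301b-low cDC2s it was 443 CPM (429 to 456) and 653 CPM (641 to 665), a log2 ratio of 0.56 (0.51 to 0.61). The CD301b-intermediate cDC2s gave 597 and 674 CPM, a log2 ratio of 0.18 (0.13 to 0.22). The CD301b-high cDC2s had the highest sum of the naive classes, at 717 CPM (701 to 732), and stood at 732 CPM (724 to 739) in the papain library, a log2 ratio of 0.03 with an interval that includes 0. After scaling to the median ratio of all genes, which was 0.09 in this class, the ratio of the CD301b-high cDC2s was on the other side of 0, at -0.06. The median log2 ratio of all genes lay between 0.02 and 0.06 in the other classes.

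**Figure D1:**
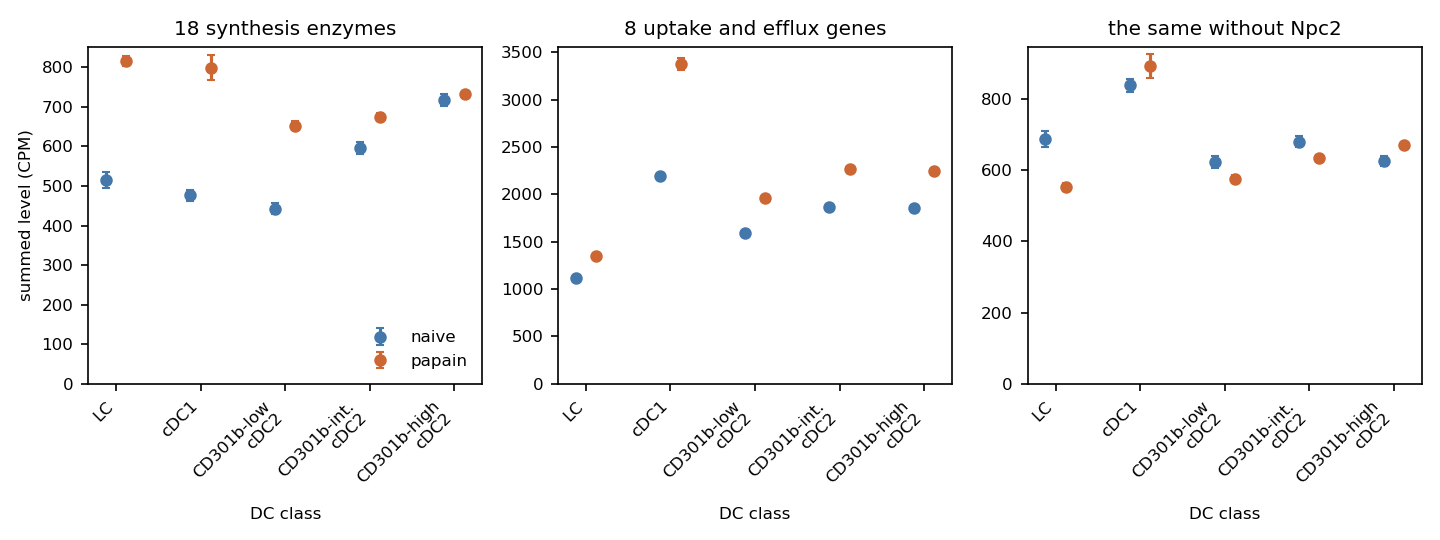
Summed level (CPM, y axis) of the 18 synthesis enzymes, the 8 uptake and efflux genes and the latter without *Npc2* in 5 DC classes (x axis), with blue points for the naive and orange points for the papain library and bars for exact Poisson 95% intervals. The naive synthesis sums run from 443 to 717 CPM and the papain sums from 653 to 815 CPM, and without *Npc2* the papain point of the LCs lies below the naive point.

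Depth moved with the difference in LCs. Papain LCs had a median of 18290 UMIs and naive LCs 10768, and within the naive LCs the synthesis sum was 391 CPM in the shallowest and 595 CPM in the deepest of 3 equal groups of cells. Among cells of 8000 to 20000 UMIs, the log2 ratio of the LCs was 0.47. In that range it was 0.88 in cDC1s and 0.55 in CD301b-low cDC2s. Without cells that held a *Cd3e* or *Trac* UMI, the log2 ratio of the cDC1s was 0.75. Without cells that held a C1q UMI, the ratio of the CD301b-low cDC2s was 0.54.

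Enzyme by enzyme, members were counted when the ratio was at least 1.5-fold, among those whose mean level in both libraries was at least 10 CPM. In LCs 10 of 15 synthesis enzymes were higher in the papain library and 0 lower, in cDC1s 10 of 14 and 0, in CD301b-low cDC2s 4 of 13 and 0, in CD301b-intermediate cDC2s 3 of 13 and 0, and in CD301b-high cDC2s 2 of 15 and 0. Of all genes at that level, 13.8%, 9.82%, 10.7%, 10.6% and 9.84% were higher by that fold in these classes, and 7.99%, 10.4%, 12.2%, 9.3% and 7.57% lower. The median log2 ratio of the enzymes was 0.66 in LCs, 0.75 in cDC1s and 0.54 in CD301b-low cDC2s, against 0.04 in CD301b-intermediate and 0.0016 in CD301b-high cDC2s. Over all 32 members, 11 of 26 were higher and 2 lower in LCs, 11 of 24 and 1 in cDC1s, 4 of 24 and 2 in CD301b-low cDC2s, 3 of 24 and 2 in CD301b-intermediate cDC2s, and 2 of 25 and 0 in CD301b-high cDC2s. The other members, 6 to 8 in each class, were under 10 CPM and were not counted. In CD301b-intermediate and CD301b-high cDC2s the share of members that were higher was near that of all genes. The counts depend on depth and on low levels. Among LCs of 8000 to 20000 UMIs, 6 members rather than 11 were higher. With 10 CPM added to both levels, 7 members rather than 11 were higher in cDC1s. The shares of all genes past 1.5-fold under these settings are not given.

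**Figure D2:**
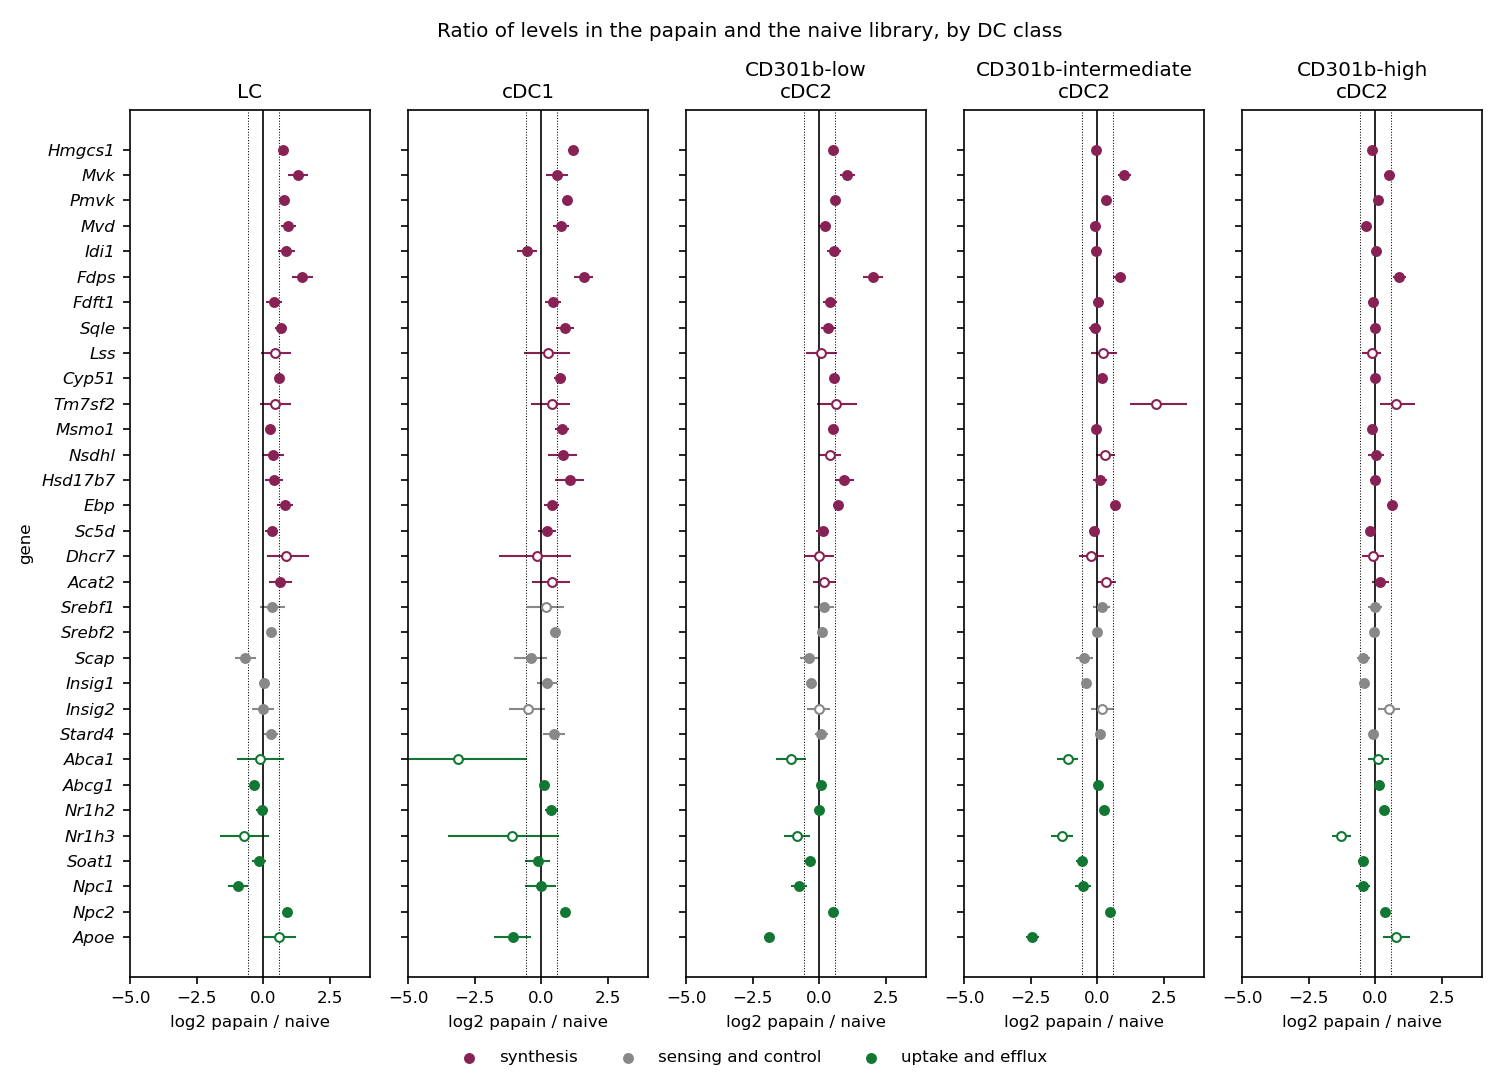
Log2 ratio of the level in the papain over the naive library (x axis) for each of the 32 members (y axis) in 5 DC classes, coloured by role, with exact 95% intervals for counting error. Open points had a mean level under 10 CPM, dotted lines mark 1.5-fold, and the interval of *Abca1* in cDC1s runs past the axis. The synthesis enzymes lie mostly right of 0 in the first 3 classes and around 0 in CD301b-high cDC2s. There *Fdps*, *Ebp* and, as an open point, *Tm7sf2* lie past the line.

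The mevalonate branch opens with *Hmgcs1*. In the naive library it was at 86.5 CPM in LCs, 62.8 in cDC1s, and 67.2, 102 and 132 in CD301b-low, CD301b-intermediate and CD301b-high cDC2s. The same papain classes had 145, 142, 95.1, 97.9 and 122 CPM. *Hmgcs1* was thus higher in papain LCs, cDC1s and CD301b-low cDC2s, with log2 ratios of 0.74, 1.18 and 0.50, and slightly lower in CD301b-high cDC2s at -0.11 (-0.19 to -0.03). *Pmvk*, which adds the second phosphate to mevalonate, was at 61.7, 84.3, 73.9, 90.2 and 102 CPM in the naive classes in that order. In the papain classes it was at 104, 164, 109.8, 113 and 109 CPM, and every class was higher in the papain library, although the interval of the CD301b-high ratio reached 0.

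*Fdps*, which makes farnesyl diphosphate, was the only member at least 1.5-fold higher in the papain library in all 5 classes. The share of all genes that were so in all 5 classes was not counted. *Fdps* ranged from 7.80 to 15.6 CPM in the naive classes and from 27.2 to 41.7 CPM in the papain classes. Its log2 ratio was 1.45 in LCs, 1.58 in cDC1s, 2.01 in CD301b-low, 0.83 in CD301b-intermediate and 0.90 in CD301b-high cDC2s. *Mvk*, mevalonate kinase, had naive levels of 13.9 to 18.7 CPM, papain levels of 26.0 to 34.1 CPM and log2 ratios of 0.53 to 1.29. *Mvd*, the decarboxylase that follows, was higher in papain LCs at 0.94 and cDC1s at 0.73, and lower in CD301b-high cDC2s at -0.36 (-0.51 to -0.21). *Idi1*, the isopentenyl diphosphate isomerase, went from 18.4 to 33.4 CPM in LCs but from 33.9 to 23.4 CPM in cDC1s, the only interval below 0 among the synthesis enzymes of LCs, cDC1s and CD301b-low cDC2s. *Acat2*, the cytosolic thiolase at the entry to the pathway, lay between 6.21 and 15.4 CPM in all groups.

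After farnesyl diphosphate, *Sqle*, squalene epoxidase, was at 33.9, 19.5, 16.1, 21.4 and 23.0 CPM in the naive LCs, cDC1s and CD301b-low, -intermediate and -high cDC2s. The papain classes had 53.7, 36.1, 20.3, 20.1 and 22.6 CPM. It was thus higher in papain LCs and cDC1s, with log2 ratios of 0.66 (0.43 to 0.90) and 0.89 (0.54 to 1.24), and less so in CD301b-low cDC2s at 0.33 (0.05 to 0.61), while the difference was within counting error in the CD301b-intermediate and CD301b-high classes. *Fdft1*, squalene synthase, followed with ratios of 0.40, 0.44 and 0.38 in LCs, cDC1s and CD301b-low cDC2s.

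*Cyp51*, the lanosterol demethylase, was at 78.8, 49.3, 77.7, 109 and 132 CPM in the naive classes in the same order. In the papain classes it was at 119, 79.7, 113, 121 and 131 CPM. The naive levels thus spanned more than the papain levels, and the CD301b-high cDC2s had the same level in both libraries within counting error. *Msmo1*, the sterol C4 methyl oxidase, was at 59.3, 34.8, 35.0, 50.1 and 61.9 CPM in the naive and 70.5, 59.2, 49.97, 47.7 and 57.3 CPM in the papain classes.

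*Ebp*, the sterol isomerase, did not follow that order. It was at 21.6, 37.1, 33.3, 33.6 and 30.8 CPM in the naive and 37.7, 48.8, 53.6, 53.2 and 46.9 CPM in the papain classes. Together with *Fdps* it was at least 1.5-fold higher in all 3 cDC2 classes of the papain library, with log2 ratios of 0.61 to 0.69. The share of all genes higher in all 3 at once was not counted. The remaining late enzymes were lower in abundance. *Sc5d* ranged from 22.0 to 41.2 CPM, *Hsd17b7* from 7.48 to 22.0 CPM, *Nsdhl* from 8.13 to 14.97 CPM, *Lss* from 4.33 to 8.23 CPM, *Dhcr7* from 2.28 to 5.83 CPM and *Tm7sf2* from 0.871 to 7.81 CPM over the 10 groups of cells. *Hsd17b7* was past 1.5-fold in cDC1s and CD301b-low cDC2s, with log2 ratios of 1.06 and 0.92.

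**Figure D3:**
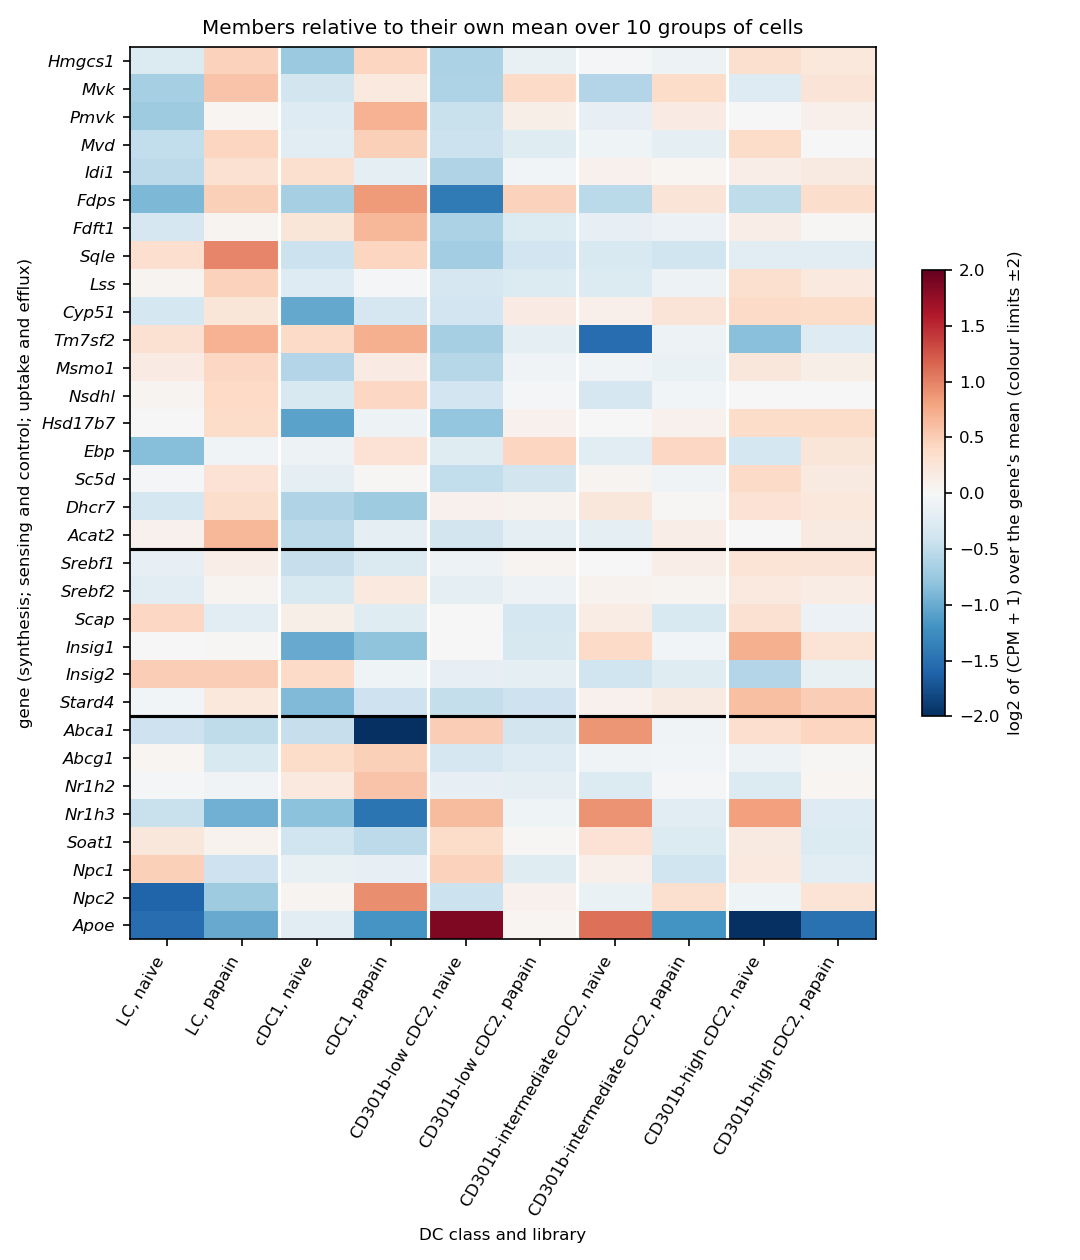
Level of each of the 32 members (rows, by role between black lines) in 10 groups of cells (columns, DC class and library), as log2 of CPM plus 1 over the mean of the gene, with red above and blue below that mean. The naive CD301b-low cDC2s are blue for nearly all synthesis enzymes, and *Apoe* is red in naive CD301b-low and -intermediate cDC2s, at 66.8 and 38.5 CPM.

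The sum of the 6 sensing and control genes was higher in papain LCs and cDC1s, with log2 ratios of 0.16 (-0.0107 among LCs of 8000 to 20000 UMIs) and 0.34, near 0 in CD301b-low cDC2s at -0.04, and lower in CD301b-intermediate and CD301b-high cDC2s at -0.11 and -0.17 (-0.22 to -0.12). *Srebf2* was at 98.4, 93.2, 101, 121 and 133 CPM in naive LCs, cDC1s and CD301b-low, -intermediate and -high cDC2s. In the papain classes it was at 119.7, 132, 107, 119 and 127 CPM, higher in LCs and cDC1s by log2 ratios of 0.28 and 0.51 and within counting error in the 3 cDC2 classes. *Insig1*, which holds back SCAP and is itself a target of SREBP2, was at 51.4, 25.3, 52.0, 67.7 and 85.1 CPM in the naive and 52.4, 29.3, 41.4, 49.9 and 62.6 CPM in the papain classes. It was therefore lower in all 3 papain cDC2 classes, with log2 ratios of -0.33, -0.44 and -0.44, while the sum of the synthesis enzymes there was higher or near equal. *Scap* had a negative log2 ratio in all 5 classes, from -0.67 in LCs to -0.38, and the interval was below 0 in 4 of them. *Stard4*, a carrier of cholesterol between membranes, ranged from 16.1 CPM in naive cDC1s to 46.4 CPM in naive CD301b-high cDC2s. *Srebf1* ranged from 7.16 to 12.6 CPM and *Insig2* from 5.25 to 12.2 CPM, and neither passed 1.5-fold in a class where it was at least 10 CPM on average.

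The sum of the 8 uptake and efflux genes was higher in the papain library in all 5 classes, by log2 ratios of 0.28 in LCs, 0.62 in cDC1s, and 0.30, 0.28 and 0.27 in CD301b-low, -intermediate and -high cDC2s, but 67.7% of its UMIs were *Npc2*. Without *Npc2* the ratios were -0.31, 0.09, -0.11, -0.10 and 0.10, so the direction turned in LCs and in CD301b-low and -intermediate cDC2s. The list did not move as one, and its sum is not read as a change of efflux.

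*Npc2*, the soluble lysosomal protein that hands cholesterol to NPC1, was at 427, 1352, 972, 1184 and 1230.0 CPM in the naive classes. In the papain classes it was at 799.6, 2480.4, 1384, 1632 and 1573 CPM. All 5 classes were higher in the papain library, by log2 ratios from 0.36 to 0.90. *Npc1*, the membrane partner of the same export step, went the other way. It ranged from 11.2 to 17.7 CPM in the naive and from 9.10 to 11.1 CPM in the papain classes, with log2 ratios of -0.96 in LCs, -0.76 in CD301b-low, -0.54 in CD301b-intermediate and -0.46 in CD301b-high cDC2s, and near 0 in cDC1s.

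*Abcg1*, the transporter that passes cholesterol to high-density lipoprotein, was at 587, 741, 454, 545 and 531 CPM in the naive classes. In the papain classes it was at 464, 794, 479, 548 and 582 CPM. It was lower in papain LCs, with a log2 ratio of -0.34 (-0.40 to -0.28), and differed by 0.01 to 0.13 in the other 4 classes. *Abca1*, which loads apolipoprotein A1, stayed under 10 CPM, from 0.325 CPM (1 UMI) in papain cDC1s to 8.80 CPM in naive CD301b-intermediate cDC2s. *Nr1h2* was at 41.0, 48.1, 37.1, 34.4 and 34.4 CPM in the naive and 39.8, 62.2, 36.5, 41.3 and 42.8 CPM in the papain classes, and did not reach 1.5-fold. *Nr1h3*, the other LXR, was at 7.48, 9.19 and 8.67 CPM in naive and 4.15, 3.64 and 3.56 CPM in papain CD301b-low, -intermediate and -high cDC2s. *Soat1*, which esterifies cholesterol for storage, was at 32.9, 31.1 and 28.8 CPM in the naive and 25.5, 20.6 and 20.7 CPM in the papain cDC2 classes, and passed 1.5-fold in the CD301b-intermediate class alone, at a log2 ratio of -0.59. These levels were uneven over the authors' cDC2 clusters from mRNA, described below. In naive cluster 5, where the macrophage genes summed to 378 CPM, *Soat1* was at 75.5, *Nr1h3* at 23.9 and *Npc1* at 26.4 CPM. The other naive clusters had 20.6 to 39.4, 2.73 to 18.2 and 10.4 to 19.0 CPM of these genes. The part of cluster 5 in the differences between the libraries was not tested.

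*Apoe*, the apolipoprotein that accepts cholesterol outside the cell, came from few cells. It was at 5.46, 14.96, 66.8, 38.5 and 3.24 CPM in the naive and 8.17, 7.16, 18.003, 7.11 and 5.56 CPM in the papain classes. In naive CD301b-low cDC2s, 10 of the 658 cells held 87.0% of its UMIs, and in naive CD301b-intermediate cDC2s 10 of 659 held 93.2%. Cells with a UMI of *C1qa*, *C1qb* or *C1qc*, complement genes typical of macrophages, were 16 and 12 of these cells and held 52.3% and 85.7% of the *Apoe* UMIs. Without those cells *Apoe* was at 33.0 CPM in naive CD301b-low and 5.66 CPM in naive CD301b-intermediate cDC2s, against 8.46 and 5.32 CPM in the papain library. The ratio of the CD301b-intermediate class thus rested on these few cells.

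The second comparison set CD301b-high against CD301b-low cDC2s within each library, where immunization was shared. The methods describe pooled skin-dLNs for the naive library, so the mix of node sites in each naive class is not known. In the naive library the synthesis sum was 717 CPM in CD301b-high and 443 CPM in CD301b-low cDC2s, a log2 ratio of 0.70 (0.64 to 0.75), with the CD301b-intermediate cells between them. After papain the ratio was 0.17 (0.14 to 0.20), since the level of the CD301b-low cells was higher there. In the naive library 9 of 13 synthesis enzymes were at least 1.5-fold higher in CD301b-high cDC2s and 0 lower, against 4.84% of all genes higher and 7.76% lower. In the papain library 0 of 14 were past that fold in either direction, against 3.96% and 3.22% of all genes. The CD301b-high cells were deeper, with medians of 15167 against 12751 UMIs for naive and 16181 against 11351 for papain cells, and among cells of 8000 to 20000 UMIs the ratios were 0.68 and 0.17.

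The naive enzymes with the largest ratios were *Hsd17b7* at 1.21, *Fdps* at 1.00, *Hmgcs1* at 0.97 and *Sc5d* at 0.90, and *Ebp* was the only 1 of the 13 with a negative value, -0.11, whose interval included 0. In the papain library *Sc5d* had the largest ratio of the enzymes at 0.57, and *Fdps*, *Mvk*, *Pmvk* and *Ebp* were at or below 0. The sensing genes kept more of the difference. *Stard4* was higher in CD301b-high cDC2s by log2 ratios of 1.11 among naive and 0.93 among papain cells, and *Insig1* by 0.71 and 0.60. *Abcg1* was higher by 0.23 and 0.28 and *Soat1* lower by -0.19 and -0.30. *Apoe* was lower by -4.36 and -1.70, with the few cells above holding much of it.

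**Figure D4:**
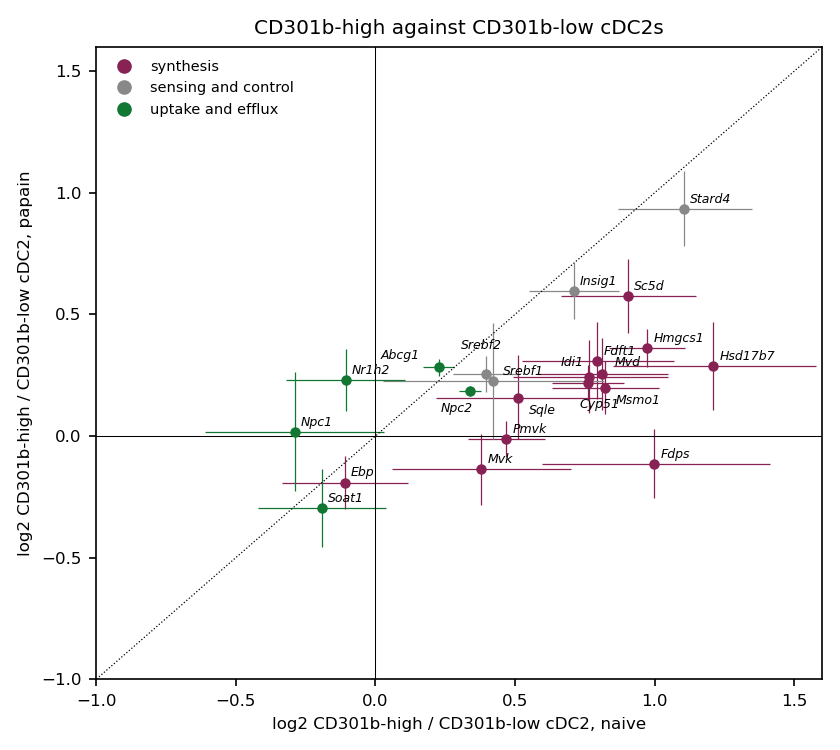
Log2 ratio of the level in CD301b-high over CD301b-low cDC2s in the naive (x axis) and the papain library (y axis) for the 22 members of at least 10 CPM on average in both, without *Apoe*, which lies off the scale, with exact 95% intervals for counting error and colours by role. Most points, 19 of 22, lie below the dotted line of equal ratios, *Fdps* farthest from it, and *Stard4* and *Insig1* lie near it. The share of all genes below that line was not counted. Of all genes, 4.84% were at least 1.5-fold higher and 7.76% lower in the naive library, against 3.96% and 3.22% in the papain library.

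Other cells moved with this comparison in the naive library. The macrophage genes summed to 96.0 CPM in CD301b-low and 37.3 CPM in CD301b-high cDC2s, the B cell genes to 62.5 and 12.7 CPM and the T cell genes to 43.7 and 9.55 CPM. Without cells that held a C1q UMI the log2 ratio of the synthesis sum was 0.68, and without cells that held a *Cd3e* or *Trac* UMI it was 0.67. The migratory DC genes *Ccr7* and *Fscn1* summed to 4556 CPM in naive CD301b-low and 6219 CPM in naive CD301b-high cDC2s. The part of B cell transcripts and of this migratory difference was not tested.

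The authors' cDC2 clusters from mRNA gave a second view, as a description only, because they were drawn from the mRNA itself. In the naive library the synthesis sum of the 7 clusters ran from 340.3 CPM in cluster 5 to 773 CPM in cluster 2. The 9 papain clusters, whose numbers are not taken to match those of the naive clusters, ran from 366 CPM in cluster 9 to 897 CPM in cluster 8. The low naive clusters 4 and 5 held mostly CD301b-low cells, 64.5% and 58.1%, and in cluster 5 the macrophage genes summed to 378 CPM. The migratory DC genes *Ccr7* and *Fscn1* were at 1389 and 410 CPM in naive cluster 5. They were at 2754 to 5029 and 991 to 3396 CPM in the other naive clusters. Naive cluster 5 held 143 CD301b-low and 39 CD301b-high cells. Papain cluster 4, with 78.5% CD301b-low cells, was at 713 CPM and cluster 7, with 50.7%, at 894 CPM. Papain cluster 9, the lowest, also held mostly CD301b-low cells, 69.0%. The CD301b-low cells alone were at 703 CPM in papain cluster 4, 807 CPM in papain cluster 7 and 304 CPM in papain cluster 9. In papain clusters 1, 2, 3, 5, 6 and 8 they were at 522, 838, 653, 621, 679 and 660 CPM. In naive clusters 1 to 5 the CD301b-low cells alone were at 667, 666, 588, 324 and 280 CPM. Over all naive CD301b-low cells the sum was 443 CPM.

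**Figure D5:**
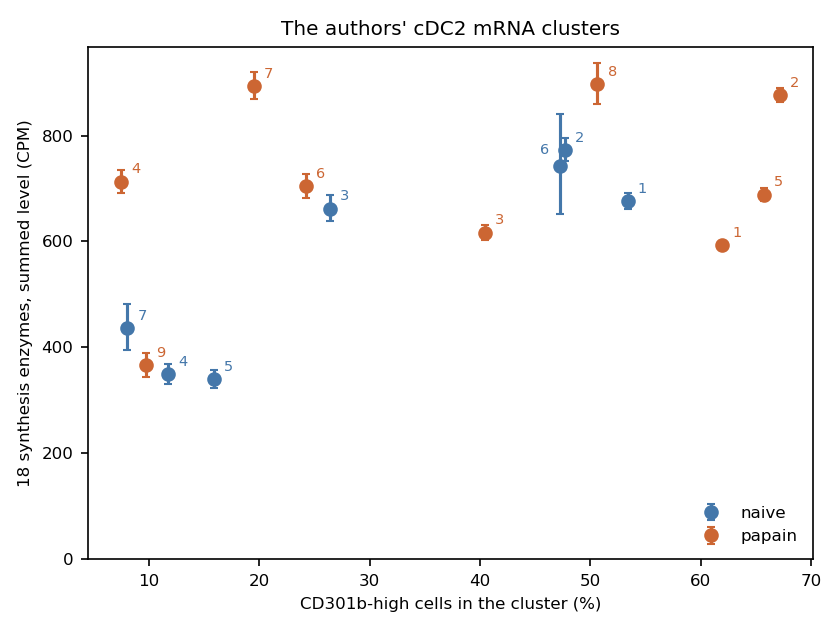
Summed level of the 18 synthesis enzymes (CPM, y axis) against the percentage of CD301b-high cells (x axis) in each of the authors' cDC2 mRNA clusters, with cluster numbers beside the points, blue for the naive and orange for the papain library, and exact Poisson 95% intervals. The naive clusters with few CD301b-high cells lie at 436 CPM or below, while of the papain clusters with few such cells, clusters 4, 6 and 7 lie at 705 CPM or above and cluster 9 at 366 CPM.

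Within clusters that had at least 20 cells of both classes, CD301b-high cells had the higher synthesis sum in most. The log2 ratio of CD301b-high over CD301b-low cells was 0.14, 0.23, 0.33, 0.23 and 0.76 in naive clusters 1 to 5, with an interval above 0 in 4 of 5. In the papain library 7 of 9 clusters had an interval above 0 and 0 below it, with values from -0.06 in cluster 3 to 0.65 in cluster 9. These intervals cover counting error only and not the variation between cells, and papain cluster 9 held only 21 CD301b-high cells. In naive clusters 1 to 4 the ratio was smaller than that over all naive cDC2s, 0.70.

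Synthesis mRNA was uneven from cell to cell within every class. A median naive LC held 4 synthesis UMIs and a median naive CD301b-high cDC2 held 9, and the variance over cells was 4.93 to 10.8 times that of counting alone in the 10 groups.

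The pathway was followed beyond the members with 37 other sterol and lipid genes, of which 35 were listed. In LCs 3 of the 17 at 10 CPM or more were at least 1.5-fold higher and 2 lower, in cDC1s 3 of 13 and 1, in CD301b-low cDC2s 1 of 18 and 8, in CD301b-intermediate cDC2s 0 of 18 and 8, and in CD301b-high cDC2s 1 of 19 and 9. Of all genes, 13.8%, 9.82%, 10.7%, 10.6% and 9.84% were higher by that fold in these classes, in the same order. The shares of all genes that were lower were 7.99%, 10.4%, 12.2%, 9.3% and 7.57%. The share of all genes lower in all 3 at once was not counted. The 7 genes lower in all 3 cDC2 classes of the papain library were *Lpl*, *Lrp1*, *Fasn*, *Lipa*, *Scd2*, *Elovl5* and *Mylip*, and 0 were higher in all 3. They act in lipoprotein lipolysis (*Lpl*) and uptake (*Lrp1*), lysosomal ester hydrolysis (*Lipa*), ubiquitin transfer (*Mylip*) and fatty acid synthesis, desaturation and elongation (*Fasn*, *Scd2*, *Elovl5*). *Lpl* was at 37.6, 47.4 and 36.0 CPM in naive and 8.36, 0.919 and 1.42 CPM in papain CD301b-low, -intermediate and -high cDC2s. *Lrp1* was at 16.1, 17.5 and 16.7 CPM in naive and 5.48, 4.22 and 5.58 CPM in papain cDC2s. The macrophage and monocyte genes were lower in the same papain classes, by the values above, and their part in these differences was not tested. In CD301b-low cDC2s the papain library thus had more summed mRNA of the cholesterol synthesis enzymes and less of *Fasn*, *Scd2* and *Elovl5*.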

How the data were processed

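Single cells of 1 naive and 1 papain library were processed by the authors with Cell Ranger 3.0.1 (mm10) and Partek Flow. For expression, the authors deposited log2 values of CPM (counts scaled to 1000000 in each cell) plus 1. The antibody values the authors deposited are on a natural log (ln) scale and were used only to check the classes. UMIs were recovered from the log2 values, 100% of which, up to 50 UMIs, were whole within 0.02 UMIs, and were summed by the authors' antibody class and library. Cells without a class, 429 naive and 290 papain, stayed out of the classes. No cell filter and no doublet caller was applied. A sum was divided by all UMIs of the class, and 1 library per condition allowed no test. The calculation of ratios and intervals was checked on simulated Poisson counts. That check does not bear on the variation between cells, which exceeded counting alone in these data. A gene counted as higher or lower at 1.5-fold with a mean of at least 10 CPM in the groups compared. All 32 members are named, with every level for the 12 that reached 50 CPM in some class. Of 37 other sterol and lipid genes, those past 1.5-fold the same way in all 3 cDC2 classes are named, and some of the list are not reported here. *Fdps*, *Nr1h3*, *Soat1*, *Lpl* and *Lrp1* levels by class were added after their values were seen. The members and lists were chosen with earlier results of these data known. Counts from a 3′ method are not compared between genes. Python 3.11.15, numpy 2.4.6, scipy 1.17.1, pandas 2.3.3 and matplotlib 3.10.9 were used.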

Additional observations from a re-analysis of the deposited data

Results flagged for a closer look

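In 3 enzymes the difference between the libraries had opposite signs in a pair of classes, each with a counting interval that left out 0 and at least 1 of them past 1.5-fold. *Hmgcs1* was higher in papain cDC1s by a log2 ratio of 1.18 and lower in papain CD301b-high cDC2s at -0.11. *Mvd* was higher in papain LCs at 0.94 and lower in papain CD301b-high cDC2s at -0.36. *Idi1* was higher in papain LCs at 0.86 and lower in papain cDC1s at -0.53. *Sc5d* also had such intervals, at 0.31 in LCs and -0.20 in CD301b-high cDC2s, but neither was past 1.5-fold. With 1 library per condition, the difference between the classes was not tested in any of these enzymes. The median log2 ratio of all genes was 0.09 in CD301b-high cDC2s.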

How the results depend on the processing

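With 1 library per condition, no library could be left out, and the variation between mice and libraries is not covered by any interval. No paired analysis was possible because each group is a single library without a replicate number. Depth limits members under 10 CPM, where a few UMIs set the ratio. Of 168 alternative values for 21 sums, 114 stayed within the main counting interval, 44 moved and 10 changed sign. Of 70 for counts of members, 48 stayed within 1.5 times and 22 moved, and of 1197 for single members 67 moved and 3 changed sign. The settings of cells of 8000 to 20000 UMIs and of leaving out cells with a C1q UMI, were chosen after seeing the data. All ratios below are log2. In the papain over naive comparison, scaling to the median ratio of all genes gave synthesis sums of 0.60 in LCs, 0.12 in CD301b-intermediate and -0.0641 in CD301b-high cDC2s, and uptake and efflux sums of 0.22, 0.23 and 0.18 in the same classes. The mean over cells gave a synthesis sum of 0.84 in cDC1s and uptake and efflux sums of 0.66 in cDC1s and 0.26 in CD301b-low cDC2s. Without cells with a *Cd3e* or *Trac* UMI, the uptake and efflux sum of cDC1s was 0.56. Without *Npc2*, that sum was -0.31 in LCs, 0.0899 in cDC1s, -0.11 in CD301b-low, -0.10 in CD301b-intermediate and 0.10 in CD301b-high cDC2s. The median over members gave synthesis values of 0.64 in cDC1s, 0.51 in CD301b-low and 0.12 in CD301b-intermediate cDC2s, uptake and efflux values of -0.15, -0.0745, -0.57, -0.57 and 0.12 in the 5 classes, and a sensing and control value of 0.0405 in CD301b-intermediate cDC2s, where the sum was -0.11. In cells of 8000 to 20000 UMIs, the synthesis sum was 0.47 in LCs, 0.88 in cDC1s and 0.12 in CD301b-intermediate cDC2s, the uptake and efflux sum was 0.22, 0.26 and 0.25 in CD301b-low, -intermediate and -high cDC2s, and signs changed for the sensing and control sum of LCs (-0.0107), *Sc5d* (-0.0736) and *Stard4* (-0.0752) in LCs and *Apoe* in CD301b-intermediate cDC2s (0.25). Without C1q cells the uptake and efflux sum of CD301b-intermediate cDC2s was 0.31. For CD301b-high over CD301b-low cDC2s, the median over members gave synthesis values of 0.76 among naive and 0.21 among papain cells and uptake and efflux values of -0.15 and 0.10. The uptake and efflux sum there was 0.27 with scaling, 0.00888 without *Npc2* and 0.26 without C1q cells in the naive library, and 0.22 without *Npc2* and 0.24 in cells of 8000 to 20000 UMIs in the papain library. Counts of members higher or lower changed most with 10 CPM added. The shares of all genes past 1.5-fold under these settings are not given beside the counts. LCs then had 0 lower (2 before), cDC1s 7 higher (11) and 0 lower (1), CD301b-low cDC2s 2 higher (4) and 1 lower (2), CD301b-intermediate cDC2s 1 higher (3) and 1 lower (2), and CD301b-high cDC2s 1 higher (2). With 1 CPM added, CD301b-intermediate cDC2s had 1 lower. With no filter on low values, cDC1s had 3 lower, CD301b-low and -intermediate cDC2s 4 lower each, and CD301b-high cDC2s 4 higher and 1 lower. In cells of 8000 to 20000 UMIs, LCs had 6 higher and 1 lower, cDC1s 0 lower, and CD301b-low and -intermediate cDC2s 1 lower each. Without C1q cells, cDC1s and CD301b-intermediate cDC2s had 0 lower, and with scaling CD301b-high cDC2s had 1 higher. The cause of these moves was not tested, except that leaving out *Npc2* or low genes changes the sums and counts by construction.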

Other observations

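The 429 naive and 290 papain cells without an antibody class fell into cells with and without a T cell transcript. Those with a *Cd3e* or *Trac* UMI, 237 naive and 241 papain, had synthesis sums of 283 CPM (261 to 305) and 276 CPM (253 to 301), below every DC class of their library. Those without, 192 naive and 49 papain, were at 582 CPM and 749 CPM, within the range of the DC classes. Their median depth was 27044 UMIs in the naive and 6271 UMIs in the papain library. The cells with a *Cd3e* or *Trac* UMI had medians of 7626 and 6980 UMIs. All 4 medians lay outside the range of the class medians of their library, and the part of depth in these sums was not tested.

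Chosen after its values were seen, *Gpr183*, a receptor for an oxysterol, was at 117 CPM in naive and 538 CPM in papain LCs, a log2 ratio of 2.20, and at 38.3 and 42.0 CPM in cDC1s.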
